A study of Mus musculus with 9 samples.

Results

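The mouse has 5 genes for the subunits of the transcription factor NF-κB (Nfkb1, Nfkb2, Rel, Rela and Relb). They were followed together with 3 genes of feedback inhibitors that NF-κB itself induces (Nfkbia, Nfkbiz and Tnfaip3), in RNA from sorted long-term hematopoietic stem cells (LT-HSCs). These genes were chosen by name and are 8 of the 47643 genes in the count table. All 8 had enough counts to be tested, among 18205 genes tested in all.

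NF-κB proteins bind DNA as dimers of subunits that share the Rel homology domain. In resting cells IκB proteins hold the dimers in the cytoplasm. Signals from the receptors for tumor necrosis factor and interleukin-1 and from Toll-like receptors activate IκB kinase, which marks IκB for degradation and frees the dimers to enter the nucleus. The dimers then induce cytokines, survival genes and their own inhibitors, so that the mRNAs of Nfkbia and Tnfaip3 are widely read as a trace of recent NF-κB activity. In hematopoietic stem cells the pathway is best known for responses to inflammation, and the class IA PI3-kinases deleted here act downstream of several of the same cytokine and growth factor receptors.

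Donors of 3 genotypes on the C57BL/6 background were compared, each by transplantation of whole bone marrow into lethally irradiated B6.SJL recipients. TKO donors carried Pik3ca lox/lox, Pik3cb lox/lox and Pik3cd-/- with Mx1-Cre, a Cre recombinase driven by the interferon-inducible Mx1 promoter. δKO donors, littermate controls, carried the same floxed alleles and Pik3cd-/- without Mx1-Cre, and WT donors were wild-type mice that carried Mx1-Cre. Recipients of all genotypes received pIpC, a synthetic double-stranded RNA that induces Cre through interferon and is itself a ligand of Toll-like receptor 3, as 2 injections of 250 μg given 48 hours apart. Donor-derived Lin- cKit+ Sca1+ Flk2- CD48- CD150+ cells were sorted 4 weeks later from the pooled marrow of 7 recipients in each group. There were 3 libraries per genotype. Nothing in the labels says that they came from separate pools, so p-values measure only the spread between these libraries, which may be technical. TKO differs from WT in all 3 kinase genes, from δKO in the excision of Pik3ca and Pik3cb and in Cre, and δKO differs from WT in Pik3cd, in the floxed alleles and in Cre. No sequencing batch is labelled.

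Libraries held 31300343 to 60386097 counts and 18180 to 22703 detected genes, with the fewest genes in δKO replicate 1. One δKO library has a replicate number in the count table that no label carries, and it is called the unnumbered δKO library. Levels are given in CPM, counts relative to the library total after TMM scaling. Pik3cd ran from 98.2 to 139 CPM in WT, from 38.5 to 91.2 in δKO and from 71.2 to 73.5 in TKO, Pik3cb from 44.6 to 63.6, 33.2 to 101 and 25.5 to 33.9, and Pik3ca from 45.8 to 65.0, 41.3 to 88.2 and 52.8 to 68.0. Counts over whole genes do not show the loss of single exons. The 12 stem cell and sorting markers were detected in every library and summed to 1433 to 1562 CPM in WT, 1315 to 2623 in δKO and 1786 to 2188 in TKO. They include Flt3 and Cd48, the genes of the surface markers Flk2 and CD48 that the sort selected against. In TKO over WT these 2 had negative estimates (log2 fold change −1.05 and −0.81) and the other 10 positive ones. None of the 12 had an adjusted p under 0.05 in that comparison (edgeR's quasi-likelihood test). The 12 neutrophil markers were also all detected in every library, and their sums in WT and TKO did not overlap. They summed to 12322, 5281 and 11095 CPM in WT replicates 1 to 3. In δKO they summed to 286 and 4743 in replicates 1 and 2 and 12203 in the unnumbered library, and in TKO to 170.4, 3262 and 930 in replicates 1 to 3. All 12 were lower in TKO than in WT by their estimates, 6 of them with an unadjusted p under 0.05 and none with an adjusted p under 0.05 (edgeR's quasi-likelihood test). Of all genes tested 4.19% had an unadjusted p under 0.05 in that comparison. As markers of 1 cell type the 12 are not independent of each other. In bulk RNA, fewer cells of a type and less RNA per cell cannot be told apart.

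The promoters of several members hold candidate NF-κB sites. Promoter windows from 250 bases before to 50 bases after an annotated start (RefSeq, build GRCm38.p6) were at hand for Nfkb2, Rel, Rela, Nfkbia and Tnfaip3, and were searched on both strands for the 10-base κB consensus. Capitals mark the matches, joined where matches on opposite strands overlap. The windows of Nfkbia and Tnfaip3 are shown because these inhibitors are classical targets of NF-κB, those of Nfkb2 and Rel because these subunits are themselves induced, and that of Rela as the subunit whose level varied least below.
Nfkbia promoter, chr12:55492598-55492897, minus strand: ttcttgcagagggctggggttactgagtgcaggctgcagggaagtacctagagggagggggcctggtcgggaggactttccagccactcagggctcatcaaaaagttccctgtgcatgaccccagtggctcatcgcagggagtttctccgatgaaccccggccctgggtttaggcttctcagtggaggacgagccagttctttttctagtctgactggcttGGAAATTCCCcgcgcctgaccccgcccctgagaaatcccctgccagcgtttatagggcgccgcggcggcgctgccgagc
Tnfaip3 promoter, chr10:19015361-19015660, minus strand: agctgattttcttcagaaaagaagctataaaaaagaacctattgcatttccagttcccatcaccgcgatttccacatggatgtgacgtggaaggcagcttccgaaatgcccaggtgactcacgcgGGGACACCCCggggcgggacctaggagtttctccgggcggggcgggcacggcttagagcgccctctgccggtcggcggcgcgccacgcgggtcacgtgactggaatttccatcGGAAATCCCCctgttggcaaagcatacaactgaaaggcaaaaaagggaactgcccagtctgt
Nfkb2 promoter, chr19:46304487-46304786, plus strand: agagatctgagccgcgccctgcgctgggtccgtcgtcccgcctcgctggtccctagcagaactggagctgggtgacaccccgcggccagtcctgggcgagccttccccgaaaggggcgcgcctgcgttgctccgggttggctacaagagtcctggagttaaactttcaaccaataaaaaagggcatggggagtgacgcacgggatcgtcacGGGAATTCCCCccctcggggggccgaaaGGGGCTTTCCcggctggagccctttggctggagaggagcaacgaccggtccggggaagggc
Rel promoter, chr11:23770920-23771219, minus strand: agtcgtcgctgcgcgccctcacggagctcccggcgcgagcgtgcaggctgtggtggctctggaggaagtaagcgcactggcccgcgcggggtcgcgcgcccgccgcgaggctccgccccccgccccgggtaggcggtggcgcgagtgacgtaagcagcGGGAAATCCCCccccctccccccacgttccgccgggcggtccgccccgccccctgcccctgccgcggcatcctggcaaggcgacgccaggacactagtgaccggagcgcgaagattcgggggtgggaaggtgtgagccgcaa
Rela promoter, chr19:5637291-5637590, plus strand: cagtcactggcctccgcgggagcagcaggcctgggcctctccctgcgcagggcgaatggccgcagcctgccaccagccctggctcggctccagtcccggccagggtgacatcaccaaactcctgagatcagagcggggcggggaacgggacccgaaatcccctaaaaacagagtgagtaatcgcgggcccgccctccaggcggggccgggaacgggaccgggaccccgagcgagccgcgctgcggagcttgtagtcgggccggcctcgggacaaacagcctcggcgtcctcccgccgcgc
The Nfkbia window held 1 match, at −29 to −20 from the start (the base before the start is −1). That of Tnfaip3 held matches at −125 to −116 and at −12 to −3. In the Nfkb2 window shown they lay at −39 to −29 and at −11 to −2, and in Rel at −92 to −82. No match lay in the window of Rela. Of these 5 genes, 4 had a match in at least 1 of their windows, and 6 of their 8 windows held one, because Nfkb2 has 3 annotated starts and Tnfaip3 has 2. The other two Nfkb2 windows overlap, and the only match of the third (−225 to −216) is the same stretch as a match of the second (11 to 20). Among all 32817 promoter windows, 2776 (8.46%) held a match, as did 10 of 20 windows of the NF-κB target genes listed for the comparisons. A match is a description of the letters and not a measured binding site.

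Per kilobase of transcript, Nfkb1, Tnfaip3 and Nfkbiz stood highest and Relb lowest. Levels between genes are given as RPKM, which divides CPM by the length in kilobases of the longest principal transcript. Over the 9 libraries the mean RPKM was 47.2 for Nfkb1, 45.3 for Tnfaip3, 44.2 for Nfkbiz, 31.6 for Nfkbia, 24.8 for Rela, 15.5 for Rel, 11.0 for Nfkb2 and 2.51 for Relb. The lowest Nfkb1 library (34.2 RPKM) was above the highest Rela library (28.0 RPKM), while the ranges of every pair of neighbors in this order overlapped. The place of Nfkb1 rests on the length chosen. Divided by the length of all its exons, it had 16.1 RPKM and stood behind Nfkbiz, Nfkbia, Tnfaip3 and Rela, whereas Relb was lowest by either length.

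None of the 8 genes passed the test in any comparison. A call needed a change of more than 2-fold and a p, adjusted over all genes tested by Benjamini-Hochberg in edgeR's quasi-likelihood test, below 0.05. In TKO against WT 0 of 8 were called (0.00549% of all genes tested were), 0 reached an unadjusted p under 0.05 (4.19% of all genes did) and 0 had groups that did not overlap (14.4% of all genes did). In TKO against δKO 0 of 8 were called (0% of all genes), 0 reached an unadjusted p under 0.05 (10.2%) and 0 had groups that did not overlap (11.7%). In δKO against WT the counts were again 0 of 8, against 0.00549% called, 7.01% with an unadjusted p under 0.05 and 11.5% without overlap among all genes. DESeq2 gave none of the 8 an adjusted p under 0.05 either, whether all 9 libraries or only the compared groups entered the fit. The shares above are those of edgeR, and DESeq2 called more genes in all in every comparison, as counted in the closing section. Over the 8 genes the median log2 fold change was −0.16 for TKO over WT, 0.085 for TKO over δKO and −0.29 for δKO over WT, beside 0.017, −0.055 and 0.046 over all genes. The comparisons with WT share the same WT libraries.

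**Figure D1:**
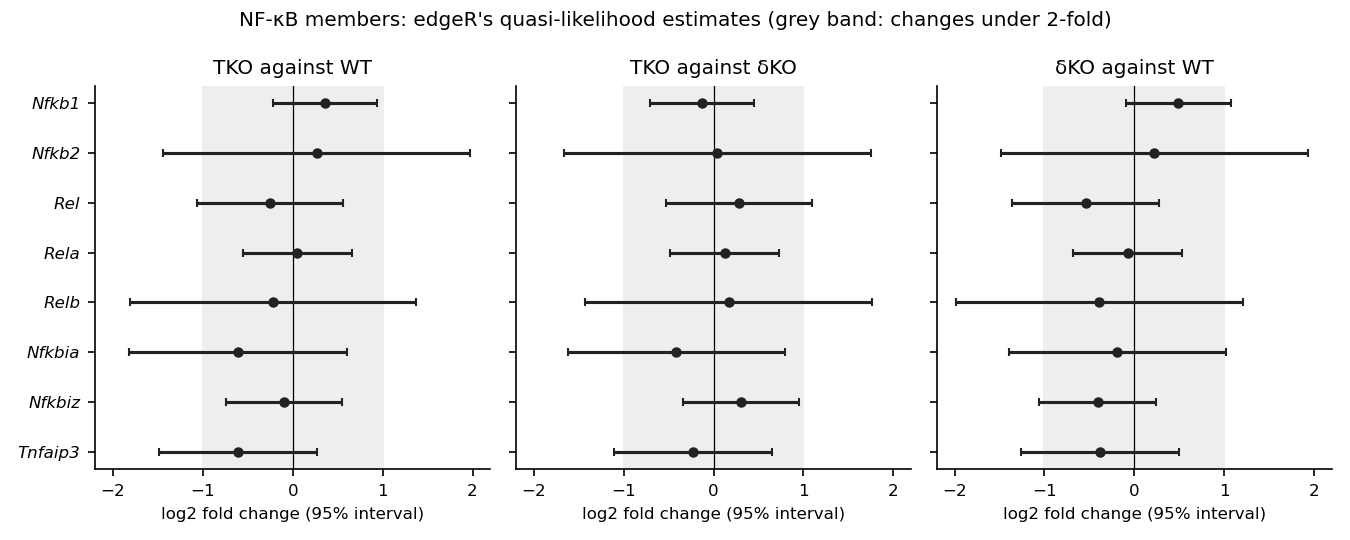
Log2 fold change (x axis) of each of the 8 genes (y axis) for TKO over WT, TKO over δKO and δKO over WT, as points with 95% intervals from edgeR's quasi-likelihood fit to all 9 libraries (3 per genotype). The grey band marks changes under 2-fold. Every interval crosses 0, those of Rela stay inside the band in all 3 comparisons, and those of Nfkb2 and Relb extend past it on both sides.

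Nfkb1 encodes p105, which is processed to the p50 subunit and also works as an IκB while unprocessed. The gene (ENSMUSG00000028163.17) lies on chromosome 3 from 135584655 to 135691547 of mm10, on the minus strand. It was measured at 148, 141 and 185 CPM in WT replicates 1 to 3, at 296, 156 and 214 in δKO replicates 1 and 2 and the unnumbered library, and at 231, 179 and 199 in TKO replicates 1 to 3. δKO replicate 1 was highest, and the WT libraries overlapped with both other genotypes only through WT replicate 3. The mean ± SD was 158 ± 23.9 CPM in WT, with 222 ± 70.5 in δKO and 203 ± 26.3 in TKO (n = 3 each). Nfkb1 gave the smallest unadjusted p of the 8 genes, 0.0913 in δKO against WT, where its log2 fold change was 0.49 (standard error 0.266, 95% interval −0.092 to 1.07, adjusted p = 0.709 in edgeR). Against WT, TKO gave 0.36 (standard error 0.266, interval −0.22 to 0.94, adjusted p = 1.00 in edgeR). Against δKO it gave −0.13 (interval −0.71 to 0.45), which became 0.049 with upper-quartile scaling.

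Rela encodes p65, the subunit that carries the main activation domain of the classical p50 and p65 dimer. It (ENSMUSG00000024927.7) lies on chromosome 19 from 5637483 to 5648130, on the plus strand. Its level was 75.1, 51.9 and 76.0 CPM in WT replicates 1 to 3. In δKO it was 73.1, 49.8 and 70.0 CPM in replicates 1 and 2 and the unnumbered library, and in TKO 76.1, 63.0 and 71.4 CPM. Replicate 2 was lowest in each genotype, and the libraries of the 3 genotypes overlapped. Its log2 ratios were 0.053 for TKO over WT (interval −0.55 to 0.66), 0.13 for TKO over δKO (interval −0.48 to 0.73) and −0.074 for δKO over WT (interval −0.68 to 0.53). Rela was the steadiest of the 8, with a highest library 1.53 times the lowest, and 2.5% of the 10775 genes that averaged at least 5 CPM had a smaller ratio.

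Rel encodes c-Rel, a subunit with its own activation domain that is prominent in lymphoid and other blood cells. The gene (ENSMUSG00000020275.9) lies on chromosome 11 from 23736847 to 23770970, on the minus strand. It was measured at 178, 79.1 and 156 CPM in WT replicates 1 to 3, at 138, 62.2 and 83.6 in δKO replicates 1 and 2 and the unnumbered library, and at 103, 93.2 and 150.4 in TKO replicates 1 to 3. Replicate 2 was lowest in each genotype, as for Rela, and TKO lay within the range of WT. Log2 ratios were −0.54 for δKO over WT (standard error 0.373, interval −1.36 to 0.27, adjusted p = 0.765 in edgeR), −0.25 for TKO over WT (interval −1.07 to 0.56) and 0.29 for TKO over δKO (interval −0.53 to 1.1).

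Nfkb2 encodes p100, the inhibitory precursor of p52 and the substrate of the noncanonical pathway. The gene (ENSMUSG00000025225.14) lies on chromosome 19 from 46304320 to 46312385, on the plus strand. Its exons share 299 bases with Psd and 531 with AC114539.1 on the opposite strand, and whether strand was used in counting is not given in the sources used here, so its level is uncertain. It was measured at 45.0, 15.5 and 31.9 CPM in WT replicates 1 to 3, and at 37.0, 43.5 and 30.8 in TKO replicates 1 to 3. In δKO it was 4.19 CPM in replicate 1, 19.4 in replicate 2 and 84.3 in the unnumbered library, so that δKO held both its lowest and its highest library, 20.1-fold apart. A smaller ratio was found for 89.1% of those 10775 genes. Log2 ratios were 0.27 for TKO over WT, 0.044 for TKO over δKO and 0.22 for δKO over WT, with intervals that reached from −1.66 to 1.98 over the 3 comparisons. Without δKO replicate 1 the value in TKO against δKO was −0.49, and without the unnumbered library it was 1.64 (unadjusted p = 0.0285, adjusted p = 0.503 in edgeR, the lowest of its alternatives). The value in δKO against WT was 0.75 without δKO replicate 1 and −1.38 without the unnumbered library. That in TKO against WT was −0.055 without WT replicate 2.

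Relb encodes RelB, the usual partner of p52. The gene (ENSMUSG00000002983.17) lies on chromosome 7 from 19606217 to 19629438, on the minus strand. It was the least abundant member, at 4.32, 7.93 and 6.76 CPM in WT replicates 1 to 3, 2.63, 8.03 and 3.83 in δKO replicates 1 and 2 and the unnumbered library, and 3.23, 5.55 and 7.52 in TKO replicates 1 to 3. Each genotype held both low and high libraries, and δKO held the lowest and the highest of the 9. Log2 ratios were −0.22 for TKO over WT, 0.17 for TKO over δKO and −0.39 for δKO over WT, and the widest interval ran from −1.98 to 1.21.

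**Figure D2:**
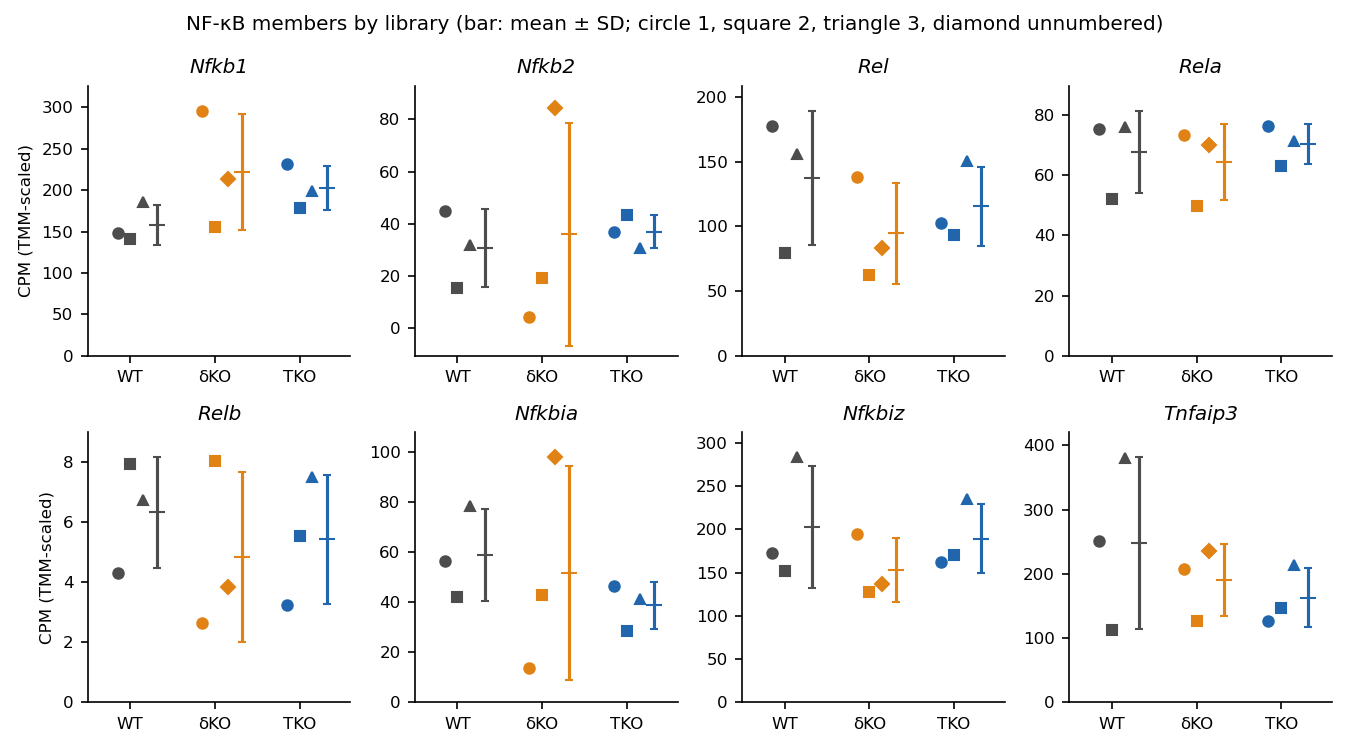
Level of each of the 8 genes in CPM (y axes, TMM-scaled, each from 0 or from below the lower error bar) in the 3 libraries of WT, δKO and TKO (x axes). Circles, squares and triangles are replicates 1, 2 and 3, diamonds the unnumbered δKO library, and the bars show mean ± SD. The libraries of the genotypes overlap for every gene, and for Nfkb2, Nfkbia and Relb the δKO libraries reach from the lowest to the highest value of the panel.

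The mixture of subunits was compared as the share of each in their summed RPKM. Nfkb1 made up 41.3 ± 6.27% of the sum in WT, with 51.7 ± 7.93% in δKO and 46.9 ± 3.13% in TKO (SD, n = 3). Rela made up 26.4 ± 0.259% in WT, with 23.0 ± 1.45% in δKO and 24.6 ± 0.516% in TKO. The Rela share of all 3 WT libraries (26.1 to 26.7%) lay above that of all TKO libraries (24.3 to 25.2%) and all δKO libraries (21.9 to 24.7%), with an exact two-sided permutation p of 0.1 for each, the smallest that 3 libraries against 3 allow, and an adjusted p of 0.6 over the 15 shares compared. With the length of all exons in place of the principal transcript, the Rela shares overlapped in both comparisons (exact permutation p = 0.7 and p = 0.5). No other share of the 15 had groups that did not overlap, by either length.

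Among the feedback inhibitors, Nfkbia encodes IκBα, which binds p50 and p65 dimers and returns them to the cytoplasm. The gene (ENSMUSG00000021025.7) lies on chromosome 12 from 55489410 to 55492647, on the minus strand. It was measured at 56.3, 42.1 and 78.6 CPM in WT replicates 1 to 3 and at 46.6, 28.4 and 41.2 in TKO replicates 1 to 3. In δKO it was 13.9 CPM in replicate 1, 43.0 in replicate 2 and 98.0 in the unnumbered library. TKO overlapped with WT, and the δKO libraries again held both extremes. The mean ± SD was 59.0 ± 18.4 CPM in WT, with 51.7 ± 42.7 in δKO and 38.7 ± 9.34 in TKO (n = 3 each). Log2 ratios were −0.61 for TKO over WT (standard error 0.554, interval −1.82 to 0.60, adjusted p = 1.00 in edgeR), −0.41 for TKO over δKO (interval −1.62 to 0.79) and −0.19 for δKO over WT (interval −1.40 to 1.02). Without δKO replicate 1 the value in TKO against δKO was −0.87 (unadjusted p = 0.0482, adjusted p = 0.409 in edgeR, the lowest of its alternatives), and without the unnumbered library it was 0.44.

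Tnfaip3 encodes A20, a ubiquitin-editing enzyme that shuts off signaling between the receptors and IκB kinase. It (ENSMUSG00000019850.11) lies on chromosome 10 from 19000910 to 19015657, on the minus strand. Its level was 250.5, 113 and 381 CPM in WT replicates 1 to 3, 207, 127 and 236 in δKO replicates 1 and 2 and the unnumbered library, and 127, 147 and 214 in TKO replicates 1 to 3. WT replicates 1 and 3 were above every TKO library and WT replicate 2 was below every one. Log2 ratios were −0.61 for TKO over WT (standard error 0.403, interval −1.49 to 0.27, adjusted p = 1.00 in edgeR), −0.23 for TKO over δKO (interval −1.11 to 0.65) and −0.38 for δKO over WT (interval −1.26 to 0.50). The value in TKO against WT moved with single WT libraries and was −0.96 without WT replicate 2 (unadjusted p = 0.0198, adjusted p = 1.00 in edgeR) and −0.17 without WT replicate 3. Its adjusted p ran from 0.567 to 1.00 over the alternatives.

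Nfkbiz encodes IκBζ, a nuclear IκB protein that restrains some NF-κB targets and is needed for the induction of others. The gene (ENSMUSG00000035356.16) lies on chromosome 16 from 55811375 to 55838899, on the minus strand. It was measured at 173, 152 and 284 CPM in WT replicates 1 to 3, at 195, 128 and 137 in δKO replicates 1 and 2 and the unnumbered library, and at 162, 170.2 and 235 in TKO replicates 1 to 3. WT replicate 3 was highest, and the libraries of all genotypes overlapped. Log2 ratios were −0.10 for TKO over WT (interval −0.75 to 0.54), 0.31 for TKO over δKO (interval −0.34 to 0.95) and −0.41 for δKO over WT (interval −1.05 to 0.24). It changed sign in TKO against WT, to 0.22, without WT replicate 3. All 3 inhibitors had negative estimates in both comparisons with WT, 0 of 3 passed the test in either, and 51.2% (TKO) and 52.8% (δKO) of all genes tested had positive estimates. In δKO against WT the estimate of Tnfaip3 turned to 0.064 without WT replicate 3, and that of Nfkbia to 0.071 without the same library and to 0.26 without δKO replicate 1.

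The spread within each genotype was described by the coefficient of variation. It was smallest in TKO for 7 of the 8 genes and largest in δKO for 5 and in WT for 3. Of the 10775 genes that averaged at least 5 CPM, 34.3% had their smallest value in TKO, 68.2% their largest in δKO and 9.86% in WT. Its median over the 8 genes was 33.0% for WT, 36.5% for δKO and 22.6% for TKO. Over those 10775 genes the median was 21.6% (WT), 46.5% (δKO) and 27.1% (TKO), so that the median of the members was above it in WT and below it in the other genotypes. Single members lay on either side, with Nfkb1 at 15.1% in WT and Nfkb2 at 118% in δKO. δKO held the highest library for 4 of the 8 genes and the lowest for 6 of the 8. The same was not counted over all genes, so these counts are not a trait of the members.

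**Figure D3:**
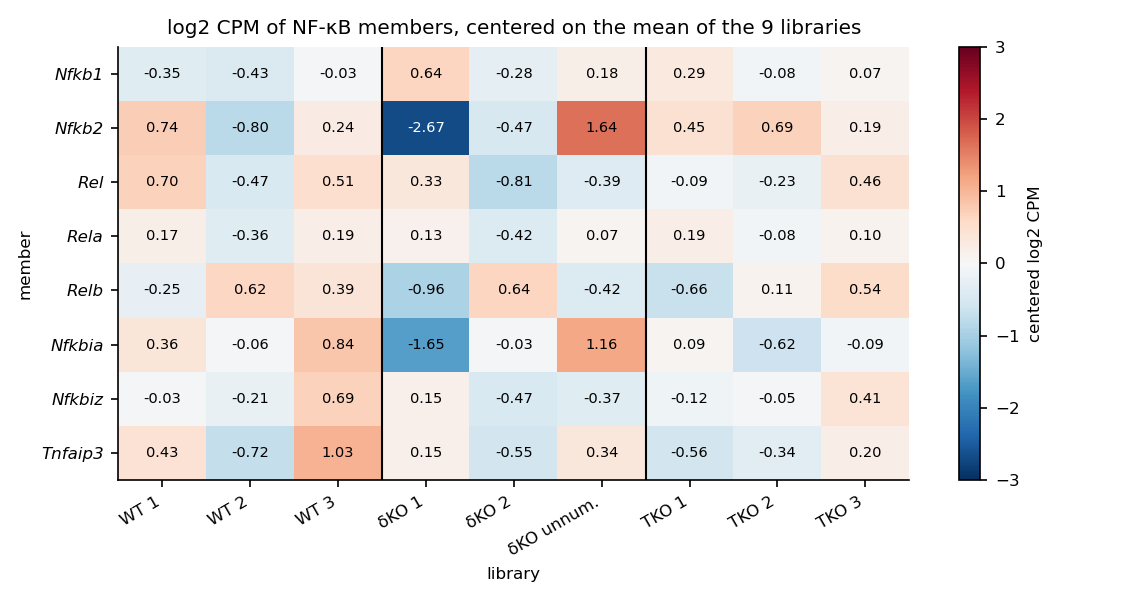
Log2 CPM of the 8 genes (rows) in the 9 libraries (columns), each centered on the mean of that gene over the 9 libraries, with the value printed in each cell and black lines between the genotypes. Red is above and blue is below the mean. The strongest deviations are those of Nfkb2 and Nfkbia in δKO replicate 1 (−2.67 and −1.65) and in the unnumbered δKO library (1.64 and 1.16).

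Some members moved together across libraries. Averaged over the 8 genes, log2 CPM centered on each gene's mean was highest in WT replicate 3 (0.48), the unnumbered δKO library (0.28), TKO replicate 3 (0.24) and WT replicate 1 (0.22). It was lowest in δKO replicate 1 (−0.48), WT replicate 2 (−0.30) and δKO replicate 2 (−0.30), and TKO replicates 1 and 2 were at −0.052 and −0.077. Across the 9 libraries, Pearson's r of log2 CPM was 0.81 between Nfkb2 and Nfkbia, 0.80 between Rel and Rela, 0.79 between Rel and Nfkbiz, 0.73 between Rel and Tnfaip3 and −0.75 between Nfkb1 and Relb. These pairs were picked as those with the largest absolute r, and Spearman's rho was 0.63, 0.78, 0.87, 0.72 and −0.73 in the same order. Other pairs lay near 0 (Nfkbia and Nfkbiz −0.038, Nfkb2 and Rel −0.048) or were negative (Rela and Relb −0.62). These values are descriptions, since both genes of a pair come from the same libraries, which differ in genotype and depth, and that of Nfkb2 and Nfkbia leans on the pair of δKO libraries that hold both extremes.

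Immediate early genes, which cells switch on within minutes of stimulation or handling, were on average also highest in WT replicate 3. Over 12 of them (Fos, Fosb, Jun, Junb, Egr1, Egr2, Egr3, Ier2, Atf3, Dusp1, Zfp36 and Nr4a1) the mean centered log2 CPM was 0.90 there and 0.50 in TKO replicate 3, and it was lowest in TKO replicate 1 (−0.66) and δKO replicate 2 (−0.60). Across the 9 libraries, Pearson's r with the mean of the 3 inhibitors was 0.89 (Spearman's rho 0.67) and with that of the 5 subunits 0.61 (rho 0.68). In TKO against WT, 11 of the 12 had negative estimates with a median log2 fold change of −0.31, and 0 had an unadjusted p under 0.05 by edgeR's quasi-likelihood test. Positive estimates were found there for 51.2% of all genes tested. Nfkbia was highest in the 3 libraries with the most neutrophil marker RNA. Those were WT replicates 1 and 3 and the unnumbered δKO library, with 56.3 to 98.0 CPM of Nfkbia against 13.9 to 46.6 in the other 6. Tnfaip3 was highest in the same 3 libraries, with 236 to 381 CPM against 113 to 214 in the other 6. Nfkbiz was not, at 137 CPM in the unnumbered δKO library and 235 in TKO replicate 3. The part of either gene group in the levels of the inhibitors was not tested.

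**Figure D4:**
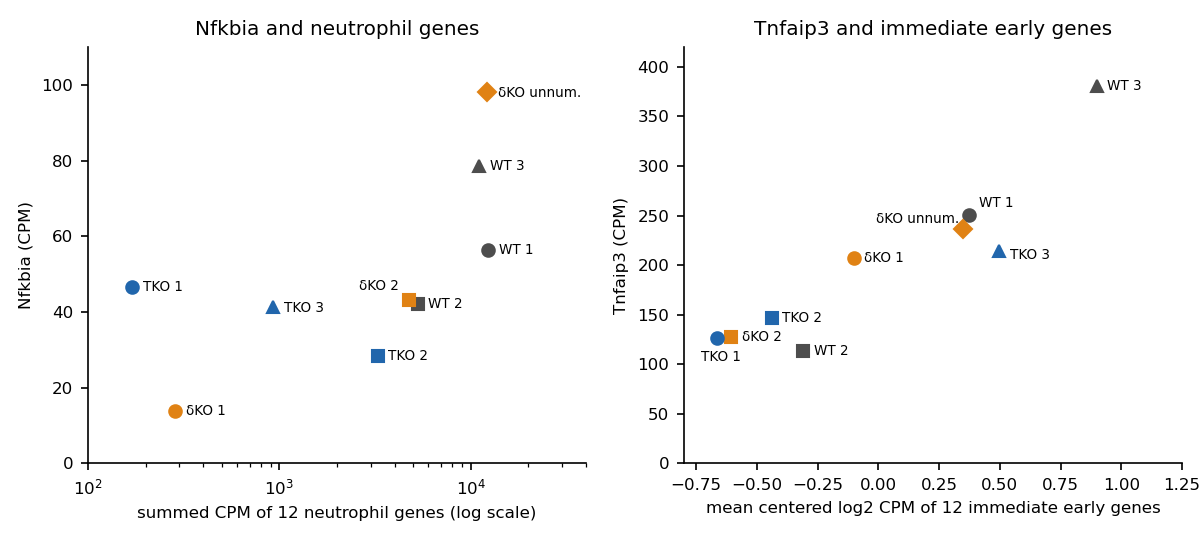
Left, Nfkbia in CPM (y axis) against the summed CPM of 12 neutrophil genes (x axis, log scale). Right, Tnfaip3 in CPM (y axis) against the mean centered log2 CPM of 12 immediate early genes (x axis). Each point is 1 of the 9 libraries, labelled by genotype and replicate. The 3 libraries with most neutrophil RNA have the most Nfkbia, and WT replicate 3 is highest for both measures on the right.

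The other genes of the pathway were taken from lists of ligands, receptors and adaptors, kinases, IκB proteins, ubiquitin regulators and target genes, 86 in all, of which 76 could be tested. By edgeR's quasi-likelihood test 0 of 76 were called in any comparison. An unadjusted p under 0.05 was found for 1 gene above and 2 genes below the WT level in TKO, for 2 above and 4 below the δKO level in TKO, and for 3 above and 1 below the WT level in δKO, beside the 4.19%, 10.2% and 7.01% of all genes given above. The median log2 fold change of the 76 was −0.024, 0.065 and −0.11 in these comparisons. Of the other IκB proteins (Nfkbib, Nfkbie, Nfkbid and Bcl3), all 4 had negative estimates in TKO against WT, from −0.55 to −0.15, and none had an unadjusted p under 0.05. Of the kinases 9 of 10 had positive estimates in that comparison, with a median of 0.11 and again no unadjusted p under 0.05. Negative estimates there were found for 12 of 18 target genes (median −0.32), 11 of 20 receptors and adaptors, 11 of 19 ubiquitin regulators and 2 of 5 ligands. Of all genes tested 51.2% had positive estimates. In δKO against WT 5 of the 10 kinases had positive estimates.

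The target genes held the smallest p-values in TKO against WT. Cxcl10, a chemokine induced jointly by NF-κB and interferon, was measured at 28.7, 14.1 and 23.7 CPM in WT replicates 1 to 3 and at 2.77, 3.02 and 7.59 in TKO replicates 1 to 3. In δKO it was 27.0, 7.53 and 6.41 CPM in replicates 1 and 2 and the unnumbered library. TKO lay below WT without overlap and overlapped with δKO. Its log2 ratio of TKO to WT was −2.31 (standard error 0.709, unadjusted p = 0.00707, adjusted p = 1.00 in edgeR). DESeq2 on the groups compared gave it an adjusted p of 0.000707, the lowest of its alternatives, which reached 1.00.

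Ccl3, a chemokine of activated myeloid cells, was measured at 51.9, 11.2 and 20.8 CPM in WT replicates 1 to 3 and at 1.15, 5.0 and 4.77 in TKO replicates 1 to 3. In δKO it was 2.99, 8.19 and 71.1 CPM in replicates 1 and 2 and the unnumbered library. The δKO library with the most Ccl3 was also that with the most neutrophil marker RNA, whose part was not tested. Its log2 ratio of TKO to WT was −2.94 (unadjusted p = 0.0186, adjusted p = 1.00 in edgeR, and 0.000303 to 1.00 among its alternatives, lowest when DESeq2 was fitted to WT and TKO alone). In TKO against δKO it was −2.91 (unadjusted p = 0.0195, adjusted p = 0.465 in edgeR) and −0.63 without the unnumbered library.

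Ltb encodes a part of the ligand of the lymphotoxin β receptor, which feeds the noncanonical pathway of Nfkb2 and Relb. Ltb was measured at 13.8, 12.3 and 9.73 CPM in TKO replicates 1 to 3. It was at 3.11, 5.01 and 2.84 CPM in WT replicates 1 to 3 and at 1.12, 2.71 and 2.73 in δKO replicates 1 and 2 and the unnumbered library. All 3 TKO libraries were above all 6 others. Log2 ratios were 1.71 for TKO over WT (standard error 0.691, unadjusted p = 0.0301, adjusted p = 1.00 in edgeR) and 2.45 for TKO over δKO (standard error 0.710, unadjusted p = 0.00510, adjusted p = 0.465). Over its alternatives the adjusted p ran from 0.0181 (DESeq2 fitted to WT and TKO alone) to 1.00 in TKO against WT, and from 0.00213, with DESeq2 on all 9 libraries, to 0.946 in TKO against δKO. Relb and Nfkb2, the subunits of that branch, overlapped between all genotypes. Lta, the other lymphotoxin gene among the listed ligands, was at 0 CPM in WT and δKO and at 0 to 0.076 in TKO, too low to be tested. Whether more ligand was made was not tested.

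Itch encodes a ubiquitin ligase that works with A20, Tbk1 and Chuk encode kinases of the IκB kinase family and Otud7b a deubiquitinase of the noncanonical pathway. Itch had 102 to 239 CPM in δKO, 88.1 to 124 in WT and 87.5 to 100.5 in TKO, and its log2 ratios were −0.90 for TKO over δKO (unadjusted p = 0.0124, adjusted p = 0.465 in edgeR) and 0.73 for δKO over WT (unadjusted p = 0.0337, adjusted p = 0.699 in edgeR). The values of Chuk in TKO over δKO and of Tbk1 and Otud7b in δKO over WT turned on 1 δKO library each. Chuk had 170.5 CPM in δKO replicate 1 and 24.6 to 44.5 in the other 8 libraries, Tbk1 had 166 in δKO replicate 1 and 43.3 to 77.8 in the others, and Otud7b had 160.2 in the unnumbered library and 34.2 to 85.7 in the others. Without that library the log2 ratio went from −1.39 to −0.054 for Chuk in TKO over δKO, and in δKO over WT from 0.89 to 0.30 for Tbk1 and from 1.03 to 0.27 for Otud7b. In TKO over WT the Otud7b libraries did not overlap (54.9 to 85.7 CPM in TKO, 39.0 to 49.5 in WT), as for 14.4% of all genes. The log2 ratio was 0.69 there (unadjusted p = 0.156 in edgeR).

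**Figure D5:**
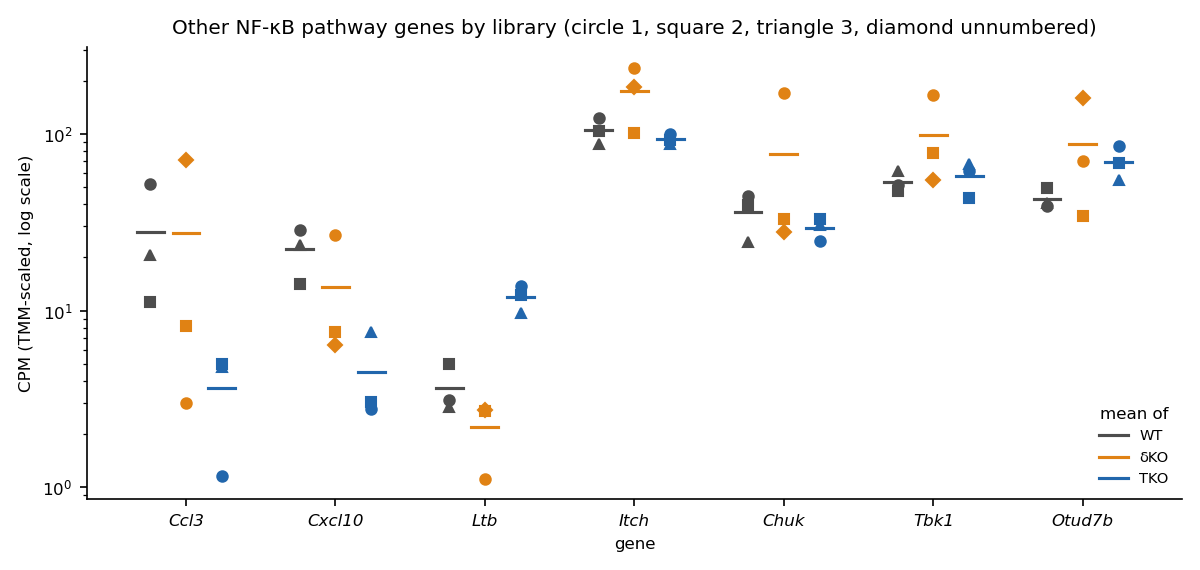
Level in CPM (y axis, log scale, TMM-scaled) of 7 of the other pathway genes with an unadjusted p under 0.05 (x axis) in WT, δKO and TKO libraries. Circles, squares and triangles are replicates 1, 2 and 3, diamonds the unnumbered δKO library, and short lines the means. TKO stands apart from both other genotypes only for Ltb, with 9.73 to 13.8 CPM, and single δKO libraries stand out for Chuk, Tbk1 and Otud7b.

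Genes with a pattern like that of a member were sought among 10767 other genes of at least 5 CPM on average, by Pearson's r of log2 CPM over the 9 libraries. Those most like Nfkbia were Dek (0.98), Jdp2 (0.97) and Myo5a (0.96), all highest in the unnumbered δKO library, and 424 genes (3.94%) had an r over 0.8 with it. Those most like Rela were Tsc22d2 (0.94), Crispld1 (0.94) and Tmem131l (0.92), and 51 genes (0.474%) passed 0.8. Most like the mean of all 8 members were Higd1a (0.92), Gm20705 (0.92) and 5031434O11Rik (0.91). The genes compared were read from the same libraries, which differ in genotype and depth, and the correlations describe likeness of pattern alone.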

How the data were processed

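Per the labels and the study's methods, the authors amplified cDNA with the Ovation RNA-Seq System V2, trimmed the reads with Trim Galore 0.3.7, checked them with FastQC 0.11.4 and aligned them to mm10 with STAR 2.5.1b, which also counted reads per gene. The deposited raw counts are whole numbers and were used as deposited. The deposited normalized values were not used. Strand settings and the annotation are not given in the sources used here, and 47224 of 47643 identifiers were found in the mm10 annotation without their version.

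Genes were kept with filterByExpr (count minimum 10, total minimum 15). Counts were scaled with TMM factors and tested with edgeR 4.0.16's quasi-likelihood test in R 4.3.3 (limma 3.58.1), with all 9 libraries in 1 fit and a mean for each genotype (6 residual degrees of freedom, biological coefficient of variation 0.805 over all genes). Benjamini-Hochberg adjustment ran over all 18205 genes. The alternatives were RLE and upper-quartile scaling, other filters on low counts, the replicate number as a block, a covariate for the number of genes detected, only the groups compared, DESeq2 1.42.0 and each library left out in turn. After the values were seen, these were also run on the pathway genes, and the length of all exons was added. Subunit shares, added after the levels had been seen, were compared by exact permutation tests. Figures were drawn with matplotlib 3.10.9 in Python 3.11.15.

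The members and lists were chosen with earlier results of these data known. The text names the members, the targeted genes, the pathway genes with an unadjusted p under 0.05 and a mean of at least 5 CPM in the higher group (at most 6 in each comparison), and the 3 genes with the highest correlation with each of Nfkbia, Rela and the mean of all members. One pathway gene that this rule names is not reported here. The other IκB genes and the immediate early genes are named as whole lists. Lta, Flt3 and Cd48 are named outside this rule, after their values had been seen. Libraries of one genotype were not duplicates, with a chi-square per gene of 128 to 533.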

Additional observations from a re-analysis of the deposited data

How the results depend on the processing

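No member had an adjusted p under 0.05 in any of the 216 values recomputed with another setting or the 216 with a library left out. Of these, 10 and 21 reversed direction, and 10 of the 24 comparisons of a member kept theirs throughout. The causes of the reversals were not tested.

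With a covariate for the number of genes detected, the log2 fold change was −0.0072 for Rela and 0.063 for Relb in TKO against WT, 0.092 for Nfkb1 and −0.18 for Relb in TKO against δKO, and −0.51 for Nfkb2 and 0.24 for Relb in δKO against WT. Upper-quartile scaling moved the median of all genes by 0.14 in TKO against δKO and by −0.15 in δKO against WT, and gave 0.049 for Nfkb1 in the former. The replicate number as a block, on the 8 numbered libraries, gave −0.032 for Relb and 0.35 for Nfkbia in TKO against δKO and −1.59 for Nfkb2 in δKO against WT. It left 1 member with an unadjusted p under 0.05 in TKO against δKO, Nfkb2 at 1.79 (unadjusted p = 0.0378, adjusted p = 0.759, edgeR). Same-numbered WT and TKO libraries correlated at −0.0033, 0.022 and 0.083, and 2 of 3 WT and 1 of 3 TKO libraries correlated best with their own number. Same-numbered δKO libraries correlated at −0.036 and 0.065 with WT and at 0.075 and −0.029 with TKO. The labels give only a shared number, and so few values cannot decide whether same-numbered libraries were handled together.

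With each library left out, TKO against WT ranged from −0.055 to 0.64 for Nfkb2, from −0.11 to 0.14 for Rela, from −0.53 to 0.043 for Relb and from −0.28 to 0.22 for Nfkbiz. TKO against δKO ranged from −0.33 to 0.13 for Nfkb1, from −0.49 to 1.64 for Nfkb2, from −0.14 to 0.74 for Relb, from −0.033 to 0.23 for Rela and from −0.87 to 0.44 for Nfkbia. δKO against WT ranged from −0.23 to 0.086 for Rela, from −1.38 to 0.75 for Nfkb2, from −1.05 to 0.26 for Nfkbia and from −0.73 to 0.064 for Tnfaip3. In each comparison 0 to 1 members had an unadjusted p under 0.05 without a library. These were Tnfaip3 without WT replicate 2 and Nfkbia and Nfkb2 as given in the report, Rel in δKO against WT (−0.82 without WT replicate 2, −0.92 without δKO replicate 1) and Nfkb1 in δKO against WT (0.70 without δKO replicate 2).

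All genes called in TKO against WT numbered 1 in the fit reported, 63 with DESeq2 on all 9 libraries, 9 with edgeR and 418 with DESeq2 on the groups compared, and 1 to 4 with each library left out (4 without δKO replicate 1). In TKO against δKO they numbered 0, and 335 and 83 with DESeq2 on all 9 libraries and on the groups compared. In δKO against WT they numbered 1, 79 and 51 likewise, and 0 with edgeR on the groups compared. Of the other pathway genes, Cxcl10 in TKO against δKO went from −1.61 to −0.65 without δKO replicate 1. In the fit reported, every interval of a member included 0. The length of all exons in place of the principal transcript moved the mean level of Nfkb1 from 47.2 to 16.1 RPKM, that of Relb from 2.51 to 1.42 and that of Tnfaip3 from 45.3 to 27.7. For Nfkb1 and Relb the move exceeded the SD over the 9 libraries.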
